A study of Mus musculus with 15 samples.

Results

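Transcripts of 6 genes that make and move mucosal antibody were followed in epithelial isolates of mouse jejunum: the heavy chain constant genes Igha and Ighm, the kappa light chain constant gene Igkc, the joining chain gene Jchain, the plasma cell gene Mzb1 and the epithelial receptor gene Pigr. The genes were chosen by name, with earlier results of these data known. They are 6 of the 52844 genes to which the deposited transcripts were summed. Plasma cells that lie under the intestinal epithelium secrete immunoglobulin A (IgA) as a dimer, in which the joining chain links a pair of IgA molecules through their tails. The polymeric immunoglobulin receptor, which Pigr encodes, binds this dimer on the basal side of the enterocyte, carries it through the cell and is cut at the luminal side, where it stays on the antibody as the secretory component. IgA and its receptor are therefore made by different cells, plasma cells and enterocytes, and an epithelial isolate can hold RNA of both.

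Bulk polyadenylated RNA was sequenced from 15 mice, 3 in each of 5 groups, all of the strain CC027/GeniUnc of the Collaborative Cross. PBS mice received phosphate-buffered saline by gavage and were not challenged, and sensitized mice received 2 mg of crude peanut extract weekly for 3 weeks and 5 mg in week 4 and were not challenged. The remaining 3 groups were sensitized in the same way, were then given 12 mg of peanut extract by gavage, and gave tissue 30, 60 or 120 min later. In every group the epithelium was shaken from a 4 cm stretch of jejunum after 75 min in EDTA and DTT, a step that can also release intraepithelial lymphocytes and cells of the lamina propria. The labels used here give neither sex nor age. No group that was given PBS and then challenged, and no sensitized group given a gavage without peanut, was analysed here, so peanut, handling and time after gavage cannot be told apart.

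The libraries held 15661513 to 22691349 estimated counts each. Mitochondrially encoded genes took 13.67% to 33.09% of them, with the highest share in 60 min replicate 3. The 10 epithelial markers, among them Epcam, Cdh1 and Krt8, were all detected in every library and summed to between 10600 and 15200 CPM (counts relative to library size, scaled between libraries by TMM). All 261 immunoglobulin genes together took 0.3456%, 0.3615% and 0.1142% of the counts in the PBS mice, 0.1359%, 0.1449% and 0.189% in the sensitized mice, 0.2376%, 0.0867% and 0.2951% at 30 min, and 0.2394%, 0.1912% and 0.1571% at 60 min. At 120 min they took 0.0624%, 0.0543% and 0.0181%, below each of the other 12 libraries. The exact 2-sided permutation p for 120 min against each other group was 0.1, the smallest that 3 against 3 libraries allow, and it was 0.2 after adjustment over 8 comparisons.

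On GRCm38 (mm10), Igha lies at chr12:113254830-113260236 and Ighm at chr12:113418558-113422730, both on the minus strand of the heavy chain locus. Igkc lies at chr6:70726435-70726966 on the plus strand, Jchain at chr5:88519809-88527891 on the minus strand and Pigr at chr1:130826684-130852249 on the plus strand. The annotation holds 2 quantified transcripts for each heavy chain gene. The transcripts Igha-201 and Ighm-201 end in the short coding tail of the secreted antibody, and Igha-202 and Ighm-202 continue instead into the exons of the membrane-bound form, the antigen receptor of B cells. The secreted tails, which carry the cysteine through which the joining chain is attached, are shown because the share of the membrane form is one of the readouts below. They are coding sequence of the reference genome in the GENCODE M21 annotation, minus strand, 5′ to 3′, at chr12:113258768-113258829 for Igha and chr12:113420867-113420928 for Ighm, and capitals mark the codon of the cysteine, the last but 1 before the stop codon.
Igha secreted tail: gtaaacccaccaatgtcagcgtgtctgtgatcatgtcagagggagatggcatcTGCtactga
Ighm secreted tail: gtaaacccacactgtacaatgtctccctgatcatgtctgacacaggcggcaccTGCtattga

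Levels of different genes were compared in TPM, which divides by transcript length and is scaled to the same total in each library by the authors' software. Igkc was the highest of the 6 genes in 12 of 15 libraries. Its TPM ran from 127.6 to 3058, with a median of 1220, and exceeded that of Igha in 15 of 15 libraries. Igha ran from 90.27 to 1688 TPM with a median of 714, Pigr from 459.5 to 643.1 with a median of 559, and Jchain from 22.41 to 340.7 with a median of 127. Ighm and Mzb1 were low, with medians of 6.31 and 3.94 TPM. Igha lay above Pigr in 9 of 15 libraries, and Jchain lay below Pigr in 15 of 15. At 120 min Pigr was above Igkc and Igha in all 3 libraries, with 0.253 to 0.799 Igkc TPM per Pigr TPM against 1.31 to 4.83 in the other libraries. In each library Jchain lay below these 3 genes and above Ighm and Mzb1.

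Igha encodes the constant part of the IgA heavy chain. Its levels were 1667, 1627 and 515.6 CPM in the PBS mice, 680.4, 658.6 and 885.6 in the sensitized mice, 976.7, 366.5 and 1309 at 30 min, and 987.4, 843.1 and 581.1 at 60 min. At 120 min the 3 libraries had 302, 248.9 and 80.56 CPM. The 3 libraries at 120 min lay below all 12 others, and the remaining 4 groups overlapped each other. How many of all genes had this order over the 15 libraries was not counted. Shares of all genes without overlap are given below for pairs of groups. In TPM, which is not scaled by TMM, 120 min replicate 1 (363.6) lay above 60 min replicate 3 (343.2) and below the 11 others outside its group. Group means ± SD (n = 3) were 1270 ± 654 CPM in the PBS mice, 884 ± 478 at 30 min, 804 ± 206 at 60 min, 742 ± 125 in the sensitized mice and 210 ± 116 at 120 min.

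Ighm encodes the constant part of the IgM heavy chain, which naive B cells carry as a receptor and plasma cells can secrete with the joining chain. Its levels were 14.29, 16.62 and 12.13 CPM in the PBS mice, 6.766, 4.685 and 37.29 in the sensitized mice, 24.59, 5.239 and 20.47 at 30 min, and 3.749, 9.721 and 19.91 at 60 min. At 120 min it measured 4.379, 5.919 and 2.703 CPM. Sensitized replicate 3 was the highest library and 120 min replicate 3 the lowest, and the 120 min group overlapped each other group except the PBS mice. Replicates differed more for Ighm than for the other members: its within-group SD was 1.07 on the log2 scale, above that of 95.2% of the 14968 genes tested.

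Igkc encodes the constant part of the kappa light chain and pairs with any heavy chain. It measured 784.8, 923.9 and 218.8 CPM in the PBS mice, 277.5, 293.3 and 545.1 in the sensitized mice, 430.8, 191.2 and 765.1 at 30 min, and 470.5, 479.7 and 703.5 at 60 min. The 120 min libraries had 115, 127.3 and 35.1 CPM. As for Igha, every library at 120 min was below all 12 others, and 120 min replicate 3 was the lowest, 26.3-fold under the highest library, PBS replicate 2.

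Jchain encodes the joining chain. Its levels were 328.7, 337.1 and 83.73 CPM in the PBS mice, 122.9, 115 and 162.2 in the sensitized mice, 174.9, 91.78 and 246.6 at 30 min, and 188.4, 179.7 and 201.8 at 60 min. Values at 120 min were 50.52, 48.15 and 19.64 CPM. The 120 min libraries again lay below all others, and PBS replicate 3 was nearer to them than to the other PBS libraries. The 60 min libraries were close together, with a mean of 190 ± 11.1 CPM (SD, n = 3), and all lay above the sensitized libraries. In TPM this order did not hold, since 60 min replicate 3 had 124.1 and the sensitized libraries had 127, 129.1 and 127.1.

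Mzb1 encodes a chaperone of the endoplasmic reticulum that aids antibody assembly in plasma cells and marginal zone B cells. It was counted 14 to 174 times per library, which makes its values less precise than those of the other members. Its levels were 7.334, 5.842 and 2.374 CPM in the PBS mice, 1.743, 2.316 and 6.992 in the sensitized mice, 6.979, 2.083 and 7.34 at 30 min, and 3.097, 2.739 and 5.261 at 60 min. At 120 min the 3 libraries had 1.648, 1.173 and 0.6308 CPM. The 120 min libraries were the lowest 3 of 15, although 120 min replicate 1 and sensitized replicate 1 lay close to each other. In TPM their order was the reverse, with 2.643 and 2.419.

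Pigr, the receptor gene of the enterocyte, varied far less. It measured 3124, 2947 and 2468 CPM in the PBS mice, 2173, 2313 and 3094 in the sensitized mice, 2334, 2212 and 3000 at 30 min, and 2094, 2644 and 3673 at 60 min. At 120 min it measured 2165, 2585 and 2092 CPM. All 5 groups overlapped. The highest and lowest libraries differed 1.76-fold, against 11.6-fold for Mzb1 and 26.3-fold for Igkc, and the within-group SD of 0.27 (log2) was close to the median of all genes tested, 0.28. The highest value, in 60 min replicate 3, goes with the largest mitochondrial share and the smallest TMM factor, 0.7724, and in TPM the same library had the lowest Pigr value of all, 459.5. The part of library composition in that value was not tested.

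**Figure D1:**
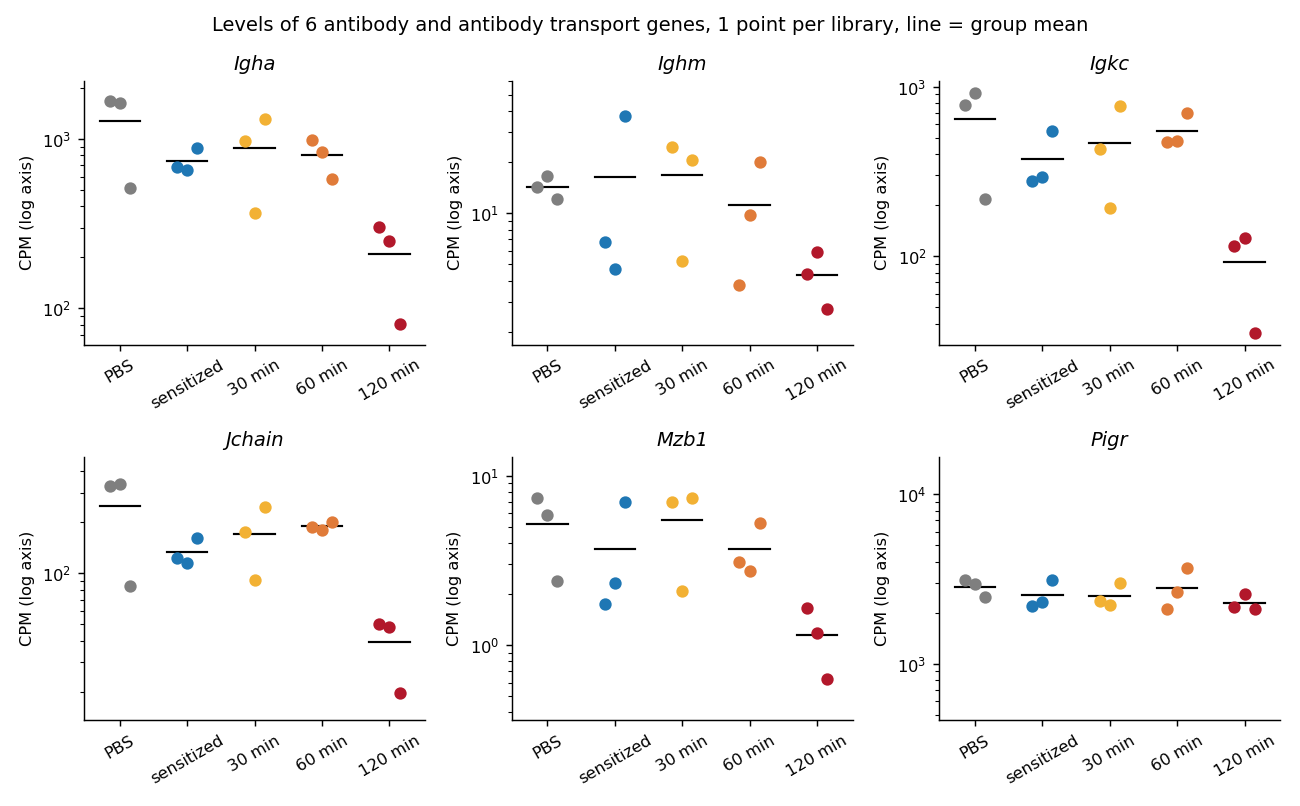
Level of each of the 6 genes in CPM on a log axis (TMM-scaled), by group. Each point is 1 library and each line a group mean of 3 libraries, and all 6 axes span the same number of log units. For Igha, Igkc, Jchain and Mzb1 the 3 libraries at 120 min lie below the other 12, whereas the Pigr libraries of all groups overlap. The share of all genes with this order was not counted. In TPM the order does not hold for Igha (363.6 in 120 min replicate 1, 343.2 in 60 min replicate 3) or Mzb1 (2.643 in 120 min replicate 1, 2.419 in sensitized replicate 1).

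Sensitization alone was compared with PBS gavage. No member passed an adjusted p of 0.05 in edgeR's quasi-likelihood test with Benjamini-Hochberg adjustment over all 14968 genes, and 0% of all genes did (212 genes, 1.42%, had an unadjusted p under 0.05, and none of them was a member). DESeq2, which called 0.0401% of all genes, and limma-voom, which called 0%, did not call a member. Log2 fold changes were -0.78 ± 0.57 (SE) for Igha, -0.79 ± 0.63 for Igkc, -0.91 ± 0.51 for Jchain, -0.51 ± 0.59 for Mzb1, 0.17 ± 0.80 for Ighm and -0.17 ± 0.21 for Pigr. The groups overlapped for each of the 6 genes, whereas 7.98% of all genes were without overlap in either direction. In CPM, PBS replicate 3 was the lowest PBS library for each of the 6 members. In TPM it had the highest Pigr value of the PBS libraries (633.9), and its Ighm value (8.738) lay above that of PBS replicate 1 (7.153).

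At 30 and 60 min the members were compared with the sensitized mice, which serve as the control group of both comparisons and of the one at 120 min. No member was called at 30 min, where 0% of all genes were, or at 60 min, where 0.00668% were, by edgeR's quasi-likelihood test, by DESeq2 (0.0401% and 1.26% of all genes) or by limma-voom (0% in both). None had an unadjusted p under 0.05, against 5.04% and 12.6% of all genes. At 30 min the log2 fold changes ran from -0.01 ± 0.21 for Pigr to 0.59 ± 0.58 for Mzb1. At 60 min they ran from -0.54 ± 0.81 for Ighm to 0.57 ± 0.63 for Igkc. At 30 min no member was without overlap, against 14.3% of all genes. Jchain was the only such member at 60 min, with 9.37% of all genes separated in that direction, and its log2 fold change was 0.51 ± 0.50. Between 60 and 30 min, where 0% of all genes were called and 667 (4.46%) had an unadjusted p under 0.05, no member was called, in DESeq2 (0.0334% of all genes) or limma-voom (0%) either, and none had an unadjusted p under 0.05. There log2 fold changes ran from -0.61 ± 0.81 for Ighm to 0.25 ± 0.63 for Igkc.

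At 120 min the 5 antibody genes had lower means than in the sensitized mice. Log2 fold changes were -1.82 ± 0.58 for Igha (3.53-fold lower), -2.01 ± 0.65 for Igkc (4.03-fold), -1.76 ± 0.52 for Jchain (3.39-fold), -1.66 ± 0.62 for Mzb1 (3.16-fold) and -1.90 ± 0.85 for Ighm (3.73-fold). None passed edgeR's quasi-likelihood test, with adjusted p of 0.143, 0.149, 0.12, 0.184 and 0.272 in the same order, while 1.26% of all genes passed. Before adjustment 5 of 6 members had a p under 0.05, as did 17.7% of all genes. Groups did not overlap for Igha, Igkc, Jchain and Mzb1, as for 13.3% of all genes in the lower direction. DESeq2 called Igha, Igkc and Jchain, with 5.65% of all genes called, and limma-voom called none. Without sensitized replicate 3 the log2 fold change was -0.41 for Ighm and -0.82 for Mzb1. Pigr had a log2 fold change of -0.15 ± 0.21 with an adjusted p of 0.763.

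Against the PBS mice, the other unchallenged group, Jchain was the 1 member that passed. It fell by 2.66 ± 0.53 on the log2 scale, 6.32-fold, with an adjusted p of 0.043 in edgeR's quasi-likelihood test, and was lower in 3 of 3 libraries than any PBS library. The share of all genes called was 1.18%, and 0.448% were called lower. Igha had a log2 fold change of -2.59 ± 0.60 (adjusted p = 0.06), Igkc of -2.80 ± 0.67 (0.0668), Mzb1 of -2.17 ± 0.62 (0.0916) and Ighm of -1.73 ± 0.84 (0.296), and Pigr had -0.32 ± 0.21 (0.422). Before adjustment 4 members had a p under 0.05, as did 18.8% of all genes. All members except Pigr were without overlap, as were 13.9% of all genes in that direction. DESeq2 called 4 members (Igha, Igkc, Jchain and Mzb1) and limma-voom 3 (Igha, Igkc and Jchain), with 6.45% and 1.09% of all genes called. The edgeR call for Jchain was lost when any 120 min library, PBS replicate 1 or PBS replicate 2 was left out, with adjusted p from 0.071 to 0.175. It was also lost without TMM (0.0768), without a filter on low counts (0.0613), with transcript length offsets (0.0531) and with only the 2 groups in the fit (0.129), where Ighm passed instead (0.0274).

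The 120 min libraries were also set against the earlier times. Against 30 min the log2 fold change was -2.07 ± 0.58 for Igha, -2.32 ± 0.66 for Igkc, -2.12 ± 0.52 for Jchain, -2.25 ± 0.62 for Mzb1, -1.96 ± 0.85 for Ighm and -0.14 ± 0.21 for Pigr. Against 60 min it was -1.93 ± 0.58 for Igha, -2.58 ± 0.67 for Igkc, -2.27 ± 0.53 for Jchain, -1.68 ± 0.62 for Mzb1, -1.36 ± 0.84 for Ighm and -0.30 ± 0.21 for Pigr. No member was called by edgeR's quasi-likelihood test in either comparison, where 1.01% and 1.12% of all genes were, and the smallest adjusted p were those of Jchain, 0.0833 and 0.0643. Before adjustment 5 members had a p under 0.05 against 30 min and 4 against 60 min, with 17.7% and 19.7% of all genes. Igha, Igkc, Jchain and Mzb1 did not overlap in either comparison, as for 10.1% and 9.78% of all genes in that direction. DESeq2 called 4 members against 30 min and 3 against 60 min, with 5.6% and 6.35% of all genes called, and limma-voom called 0 and 2, with 1% and 1.2%. All comparisons at 120 min share the same 3 libraries.

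A joint test of any difference among the 5 groups called 0 members in edgeR and 0.347% of all genes. The adjusted p were 0.158 for Jchain, 0.219 for Igha, 0.228 for Igkc, 0.264 for Mzb1, 0.556 for Ighm and 0.758 for Pigr. Before adjustment 4 members had a p under 0.05, with 15.7% of all genes. DESeq2's likelihood ratio test called 3 members, with 7.3% of all genes called, and limma-voom called 0, with 0.174%.

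**Figure D2:**
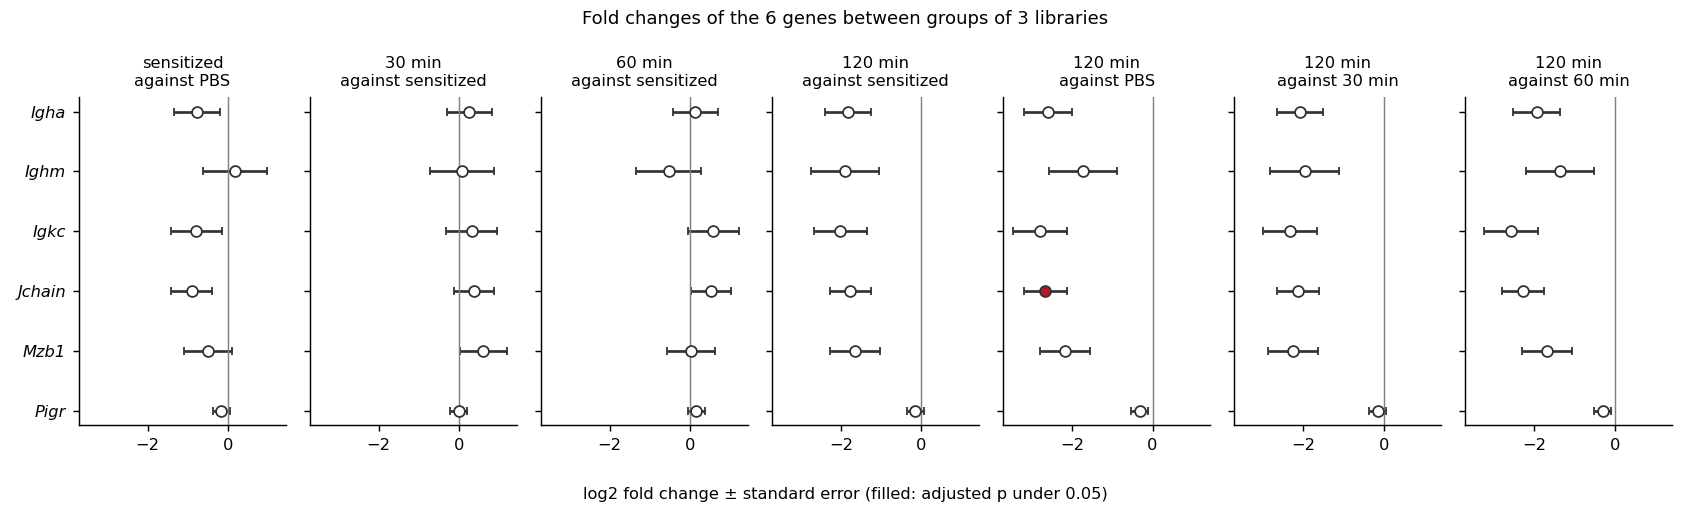
Log2 fold change of each gene with its standard error in 7 comparisons of 3 against 3 libraries, from edgeR with all 15 libraries in the fit. Filled points passed an adjusted p of 0.05, which Jchain did against PBS, and the 4 panels at 120 min share the same 3 libraries.

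In bulk RNA, fewer plasma cells in an isolate and less antibody RNA per plasma cell cannot be told apart, so lists of other genes were read beside the members. Of 10 further genes listed as plasma cell markers, 10 of 10 had negative log2 fold changes at 120 min against the sensitized mice. Their median was -1.68 (all genes: -0.01), with 0 called. Whether other lymphocytes of the isolates contributed to the levels of these 10 genes was not tested. Derl3, a factor of protein disposal from the endoplasmic reticulum, had -1.96 ± 0.54 and an adjusted p of 0.0866. Irf4, a transcription factor of plasma cell formation, had -1.76 ± 0.59, and Tnfrsf13b, a receptor for the survival factors APRIL and BAFF, had -1.59 ± 0.57. Tnfrsf17, another receptor of those factors, was at 0.0157 CPM on average at 120 min and 0.406 in the sensitized mice. Both means are near the floor of detection, so their ratio is not precise. In 120 min replicates 2 and 3, and also in 30 min replicate 2, 1 gene of the list was at 0. The summed level of the list was 15.5 to 25.9 CPM at 120 min and 27.9 to 57.7 CPM in all other libraries, without overlap. Without sensitized replicate 3 the median was -1.16, with 10 of 10 still negative.

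Genes of other lymphocytes had lower means at 120 min, by amounts that depended on sensitized replicate 3. Of 15 B cell genes, 15 of 15 had negative log2 fold changes at 120 min against the sensitized mice, with a median of -1.95 and 0 called, and summed to 7.21 to 17 CPM at 120 min and 9.8 to 111 CPM in the sensitized mice. Without sensitized replicate 3, which held 110.8 CPM, the B cell median was 0.20 and 7 of 15 were negative, so the direction of this list against the sensitized mice rested on that library. Of 17 T cell and intraepithelial lymphocyte genes, 17 of 17 were negative, with a median of -1.58 and 0 called, and summed to 34.7 to 98.4 CPM against 105 to 361 CPM. Without sensitized replicate 3 the T cell median was -0.83, with 17 of 17 negative. Low sums were not confined to 120 min. The T cell sum was 58.39 CPM in 30 min replicate 2 and 90.8 and 61.23 CPM in 60 min replicates 1 and 2. The B cell sum was 16.52 CPM in 60 min replicate 1. In 30 min replicate 2 it was 6.06 CPM, the lowest of 15 libraries, with 3 of its genes at 0. Cd2, a T cell adhesion receptor, had -2.36 ± 0.74 with an adjusted p of 0.12, and Trac, the constant gene of the T cell receptor alpha chain, had -1.41 ± 0.54 with 0.196. Of 11 macrophage and dendritic cell genes, 6 were negative and 5 positive, with a median of -0.11 and 0 called, and the median was 0.34 without sensitized replicate 1 and 0.05 without 120 min replicate 3. No B cell or T cell marker of these lists was at 0 in any 120 min library.

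Epithelial genes had slightly higher means. Of 10 epithelial markers, 8 had positive log2 fold changes at 120 min against the sensitized mice, with a median of 0.17 and 0 called, and their sum was 14600 to 15200 CPM at 120 min and 10600 to 13600 CPM in the other 12 libraries. The part of the lymphocyte content of the isolates in the lower antibody levels was not tested. Against the PBS mice the same lists gave medians of -2.11 for plasma cells (10 of 10 negative), -2.04 for B cells (15 of 15), -1.98 for T cells (17 of 17) and 0.25 for epithelium (9 of 10 positive), with 0 genes called in these 4 lists. Of the 11 macrophage and dendritic cell genes, 10 were negative against the PBS mice, with a median of -0.95 and 0 called. Leaving out any 1 library of the comparison with the PBS mice kept every plasma, B and T cell gene negative.

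**Figure D3:**
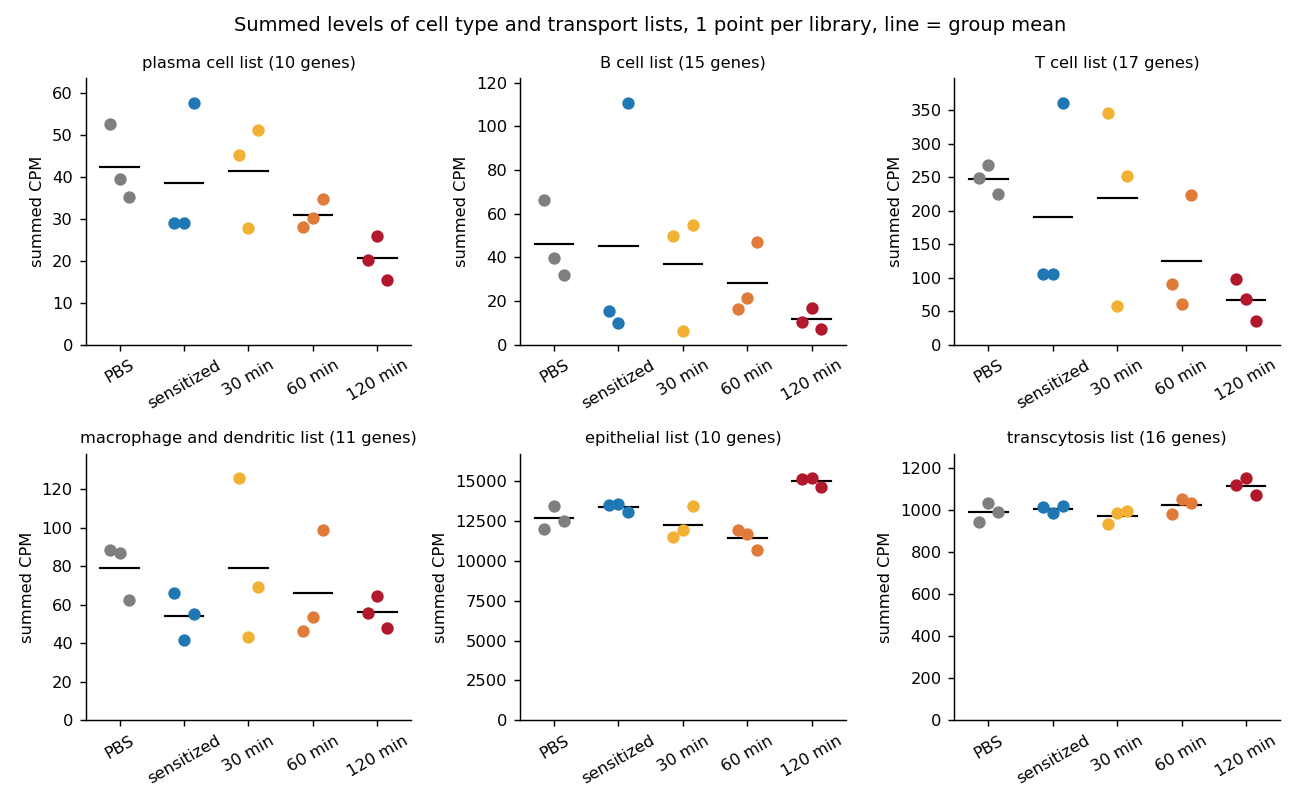
Summed level of 6 gene lists in CPM, by group, on linear axes from 0. Each point is 1 library and each line a group mean of 3 libraries. The plasma cell sum is lowest and the epithelial and transcytosis sums are highest in the 3 libraries at 120 min, and sensitized replicate 3 has the highest B cell and T cell sums.

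Genes of protein secretion that plasma cells share with other secretory cells had mixed signs. Of 9 such genes, 6 had negative and 3 positive log2 fold changes at 120 min against the sensitized mice, with a median of -0.11. Sdc1, which encodes syndecan-1, a proteoglycan of plasma cells and of epithelial cells, rose by 0.59 ± 0.14 on the log2 scale (adjusted p = 0.0482, edgeR). Its levels were 103 to 125 CPM in the sensitized mice and 154 to 190 CPM at 120 min. Against the PBS mice Sdc1 rose by 0.76 ± 0.14 (adjusted p = 0.0239, edgeR). Of all genes, 1.26% were called against the sensitized mice and 1.18% against the PBS mice. Against the sensitized mice the call was lost when any 1 library of either group was left out (adjusted p 0.107 to 0.23), and against the PBS mice it was kept only without PBS replicate 2 (0.0439; otherwise 0.052 to 0.111). Sdc1 thus went in the opposite direction to the antibody genes in the same libraries.

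Among the other immunoglobulin constant genes, Iglc2, a lambda light chain gene, fell by 3.35 ± 0.74 on the log2 scale at 120 min against the PBS mice (adjusted p = 0.0482, edgeR). Its levels were 12.8, 11 and 1.29 CPM in the PBS mice and 0.612, 1.12 and 0.721 CPM at 120 min. The groups did not overlap, as for 13.9% of all genes in that direction, but PBS replicate 3 was close to the 120 min libraries. The call was kept without PBS replicate 3 (adjusted p = 0.017) and lost without any other library of either group (0.0754 to 0.186). Of the 8 tested genes of this list, 6 were negative in that comparison, with a median of -1.16. All lambda constant genes together had 634, 429 and 89 estimated counts in the PBS mice and 247, 91 and 186 at 120 min. These sums, not scaled to library size, overlapped between the groups. How reads were divided among similar lambda genes was not tested. Ighe, the heavy chain gene of IgE, the antibody of peanut allergy, had 6 counts in all, in 2 of 15 libraries, and was too low to be tested.

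Genes that serve Pigr were read in the same way. Of 15 tested genes of endosomal sorting and transcytosis, 13 had positive log2 fold changes at 120 min against the sensitized mice, with a median of 0.15 and 0 called, and the list summed to 1070 to 1150 CPM at 120 min and 933 to 1050 CPM in the other 12 libraries. Vps35, a retromer subunit, had 0.24 ± 0.10 and Rab10, a small GTPase of endosomal traffic, 0.20 ± 0.10, with adjusted p of 0.245 and 0.335. Of 21 tested genes that control Pigr transcription (interferon, TNF, IL-17 and IL-4 receptors and their factors), 14 were negative and 7 positive, with a median of -0.12 and 0 called. The smallest adjusted p, 0.0779, was that of the interferon gamma receptor chain Ifngr2, at -0.42 ± 0.11. Fcgrt, the neonatal Fc receptor that carries IgG across epithelium, had -0.09 ± 0.16 with an adjusted p of 0.808. Of 6 tested genes that support IgA responses, 4 were positive and 2 negative, with a median of 0.06 and 0 called, and Nos2, the inducible nitric oxide synthase, had 1.52 ± 0.69 with an adjusted p of 0.271.

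The mixture of antibody classes was described from counts within each library, where the total amount cancels. Igha took 96.6%, 96.7% and 95% of heavy chain constant counts in the PBS mice, 98.1%, 98.3% and 85.5% in the sensitized mice, 90.9%, 95% and 94.5% at 30 min, and 98.7%, 96.9% and 86.7% at 60 min. At 120 min it took 91.4%, 92.4% and 92.1%. IgA was thus the main class in every library, and sensitized replicate 3 and 60 min replicate 3 had the smallest share. The 95% Wilson intervals were 84.91% to 86.05% and 85.98% to 87.31% in these libraries and cover counting error only. The balance was mostly IgG, at 10.23% and 9.48% of heavy chain counts there against 0.74% in sensitized replicate 1. Ighg2b was the main IgG gene, with 89.8 CPM in sensitized replicate 3, 63.3 CPM in 30 min replicate 1 and 54.3 CPM in 60 min replicate 3, and 2.25 CPM in 120 min replicate 3. The T cell list summed to 361.3, 345.8 and 222.7 CPM in the first 3 of these libraries and to 34.69 CPM in the last. Other libraries did not follow this order. The PBS mice had T cell sums of 249, 267.6 and 224.2 CPM with IgG at 2.32%, 2.07% and 2.39% of heavy chain counts. In 120 min replicate 1 the sum was 98.4 CPM with IgG at 7.08%. A relation between T cell content and IgG share was not tested.

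Ighm took 0.37% (60 min replicate 1) to 3.60% (sensitized replicate 3) of heavy chain counts. Lambda chains took 2.06% to 9.51% of light chain constant counts in 14 libraries and 19.24% in 120 min replicate 3, the library with the fewest immunoglobulin counts, where the 95% Wilson interval was 16.91% to 21.88%.

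The amounts of heavy and light chain RNA were nearly proportional. Igha had 1.62 to 2.63 counts per Igkc count in 14 libraries, and 0.826 in 60 min replicate 3. The same library had the fewest heavy chain variable counts per kappa variable count, 0.408 against 0.602 to 1.1 elsewhere, so constant and variable genes gave the same order for it. Jchain had 0.287 counts per Igkc count there, the lowest value of 15, in a range that reached 0.56 in 120 min replicate 3. At 120 min the ratio of Igha to Igkc was 2.63, 1.95 and 2.29. The value of 120 min replicate 1 was the highest of all 15 libraries, above the 2.45 of sensitized replicate 1, and the values of the other 2 libraries lay among those of the other groups. In TPM 60 min replicate 3 had 343.2 for Igha, the third lowest value of the 15 libraries, and 1376 for Igkc.

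**Figure D4:**
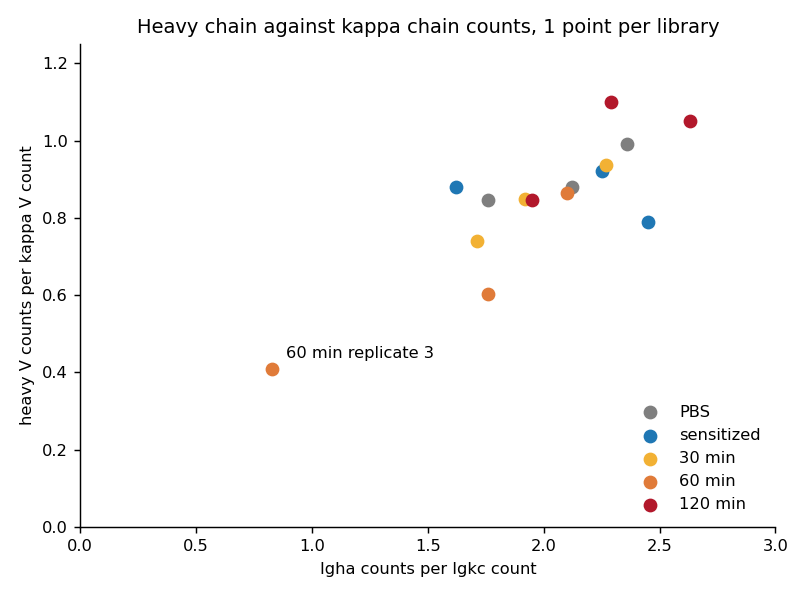
Igha counts per Igkc count against heavy variable counts per kappa variable count, 1 point per library, coloured by group, both axes from 0. Replicate 3 of the 60 min group, at 0.826 and 0.408, lies apart from the other 14 libraries.

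Variable segments, which each B cell clone joins in its own combination, were counted as a view of how varied the antibody RNA of a library was. Across the 15 libraries 60173 heavy, 74719 kappa and 4963 lambda variable counts were assigned to segments, and 91 of 113 annotated heavy segments and 78 of 100 kappa segments had at least 10 counts in all. Segment names are those of the C57BL/6 reference, CC027 carries a mosaic of founder genomes, and reads shared by near-identical segments were divided among them, so a name here stands for the nearest segment of the reference. Ighv14-3 was the leading heavy segment in 7 of 15 libraries, with 33% of heavy variable counts in PBS replicate 2. The next heavy segments by counts summed over all libraries were Ighv1-9 (2605 counts) and Ighv1-64 (2410), after Ighv14-3 with 7308. The highest kappa sums were those of Igkv8-24 (4408), Igkv4-59 (3885) and Igkv6-14 (3691), and Igkv4-59 was the most even of the 3, with 2.22% to 9.98% of kappa variable counts per library. Of the lambda segments Iglv1 had 4114 counts, Iglv3 463 and Iglv2 386. In total, 8 heavy and 11 kappa segments led in at least 1 library. The effective number of segments (the inverse of the summed squared shares) had a median of 22.2 for heavy and 25.1 for kappa.

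Some libraries were dominated by a few segments, which were chosen here after their values were seen. In 60 min replicate 1, Ighv1-64 and Ighv1-53 took 27.2% and 26% of heavy variable counts, and Igkv9-129 and Igkv9-124 took 32% and 23.6% of kappa variable counts. Its effective numbers, 6.5 and 5.93, were the lowest of 15 libraries. The same 4 segments also led in sensitized replicate 2, with 10.2%, 10%, 11.1% and 9.48%. In sensitized replicate 1 these segments took 6.61%, 4.33%, 5.07% and 4.76% in the same order. In every remaining library Ighv1-64 took at most 2.28%. The pairs are printed because the leading segments within each chain resemble each other, so that reads of 1 CC027 segment may have been divided between them. Capitals mark the positions at which the members of a pair differ. The stretches are the first bases of the second exon in mm10, 5′ to 3′ on the coding strand: chr12:115507550-115507849 and chr12:115158408-115158707, both minus, for the heavy pair, and chr6:67839969-67840266, plus, and chr6:67942074-67942371, minus, for the kappa pair.
Ighv1-64: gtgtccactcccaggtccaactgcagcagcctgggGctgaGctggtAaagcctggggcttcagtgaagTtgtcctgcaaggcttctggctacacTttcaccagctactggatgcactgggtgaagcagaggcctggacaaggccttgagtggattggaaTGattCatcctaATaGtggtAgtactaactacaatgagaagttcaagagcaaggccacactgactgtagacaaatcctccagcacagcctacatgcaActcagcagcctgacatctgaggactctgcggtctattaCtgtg
Ighv1-53: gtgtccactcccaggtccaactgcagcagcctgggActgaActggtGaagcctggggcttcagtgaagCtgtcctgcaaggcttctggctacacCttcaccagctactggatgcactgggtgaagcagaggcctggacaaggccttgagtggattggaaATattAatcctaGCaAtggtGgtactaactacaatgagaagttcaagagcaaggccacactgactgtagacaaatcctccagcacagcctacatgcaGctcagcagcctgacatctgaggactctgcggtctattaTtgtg
Igkv9-129: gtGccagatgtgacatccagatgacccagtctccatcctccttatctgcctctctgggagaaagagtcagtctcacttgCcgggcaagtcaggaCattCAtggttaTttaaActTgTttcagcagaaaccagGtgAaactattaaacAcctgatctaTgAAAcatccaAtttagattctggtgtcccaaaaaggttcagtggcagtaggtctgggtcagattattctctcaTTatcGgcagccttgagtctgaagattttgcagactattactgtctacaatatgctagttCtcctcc
Igkv9-124: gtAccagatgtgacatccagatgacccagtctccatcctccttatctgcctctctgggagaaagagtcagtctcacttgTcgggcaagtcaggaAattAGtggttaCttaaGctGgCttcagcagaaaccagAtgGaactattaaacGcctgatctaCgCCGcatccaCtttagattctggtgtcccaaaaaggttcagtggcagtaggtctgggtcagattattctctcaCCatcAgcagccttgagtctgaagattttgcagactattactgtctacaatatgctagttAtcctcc
The heavy pair differed at 14 of 300 bases (95.3% identity) and the kappa pair at 21 of 298 (93%). Whether the pairs stand for 1 or more rearranged genes of this strain was not tested.

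Other segments stood out in single libraries. Igkv8-24 took 33.7% of kappa variable counts in 60 min replicate 2 and 0.519% to 6.66% elsewhere. Igkv8-30 took 22.4% in PBS replicate 2, the library in which Ighv14-3 took 33%, and at most 5.07% elsewhere. Iglv2 took 89% of lambda variable counts in 120 min replicate 1, with a 95% Wilson interval of 84.95% to 92.06%, whereas Iglv1 led in each of the other 14 libraries with 55.7% to 99.3%. No heavy or kappa segment led in all 3 libraries of the 30, 60 or 120 min groups, and Ighv14-3 led in all 3 PBS libraries. In 120 min replicate 3, Ighv8-2 took 21% of heavy variable counts (97 of 461, 95% Wilson interval 17.57% to 24.99%) and at most 0.122% in every other library. Only 12 heavy and 14 kappa segments reached 10 counts in that library, and its effective numbers, 14.1 and 20.7, were the lowest at 120 min.

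**Figure D5:**
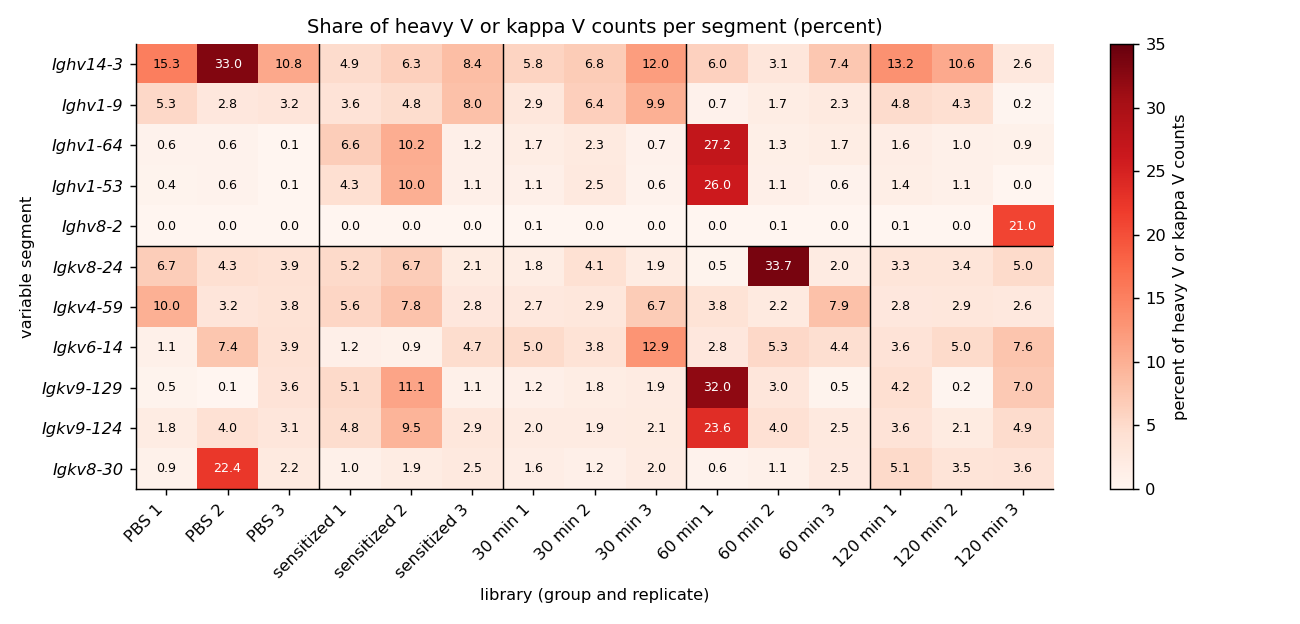
Share of heavy (upper 5 rows) or kappa (lower 6 rows) variable counts per segment and library, in percent, by colour and printed value. Replicates 1 and 2 of the 60 min group, replicate 2 of the PBS group and replicate 3 of the 120 min group each hold a segment above 20%.

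The membrane form was rare for IgA and frequent for IgM. Igha-202 took 0.243% to 2.77% of Igha counts, with a median of 0.882%, and its highest shares were in sensitized replicate 3 (2.77%) and 60 min replicate 3 (2.02%). At 120 min the shares were 0.882%, 1.79% and 0.674%. Ighm-202 took 17.5% to 100% of Ighm counts, with a median of 55.5%, but Ighm had only 60 to 613 counts per library, and the lowest share, in 120 min replicate 3, rested on 10 of 60 counts with a 95% Wilson interval of 9.31% to 28.03%. The transcripts of each gene share most of their length, so these shares depend on how the authors' software divided reads between them. Pigr came almost entirely from Pigr-201, with at least 99.7% of its counts.

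Across the 15 libraries the antibody genes were correlated in log2 CPM, given here as a description, since all genes of a library share its cells and its depth. Pearson's r was 0.99 for Igkc and Jchain, 0.97 for Igha and Jchain and 0.95 for Igha and Igkc. It was 0.86 for Ighm and Mzb1, 0.65 for Igha and Ighm, 0.77 for Ighm and Pigr, and 0.49 for Igha and Pigr. After group means were taken off, r was still 0.97 for Igkc and Jchain, 0.40 for Igha and Ighm, and 0.32 for Igha and Pigr.

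Among 10754 other genes with a mean of at least 2 CPM, Ly6c2, a surface protein of lymphoid and myeloid cells, and St6gal1, the sialyltransferase of N-glycans, were the genes most like Igha, Igkc and Jchain. The r for Ly6c2 was 0.94, 0.95 and 0.94, and for St6gal1 it was 0.91, 0.92 and 0.90. The 5 genes most like Ighm were Hvcn1, Dock2, Cxcr4, Fnbp1 and Msn, each with r = 0.97. Those most like Mzb1 were Trerf1 (0.95), Icos and Ripor2 (0.94 each), and Celf2 and Lax1 (0.92 each), with Icos being a T cell costimulatory receptor. For Pigr they were Pax5, Panx1 and Mmp28 (0.87 each) and Pou2f2 and mt-Co3 (0.86 each), among them 2 B cell factors, Pax5 and Pou2f2, and a mitochondrially encoded gene. All these r rest on TMM-scaled CPM. The smallest TMM factors, 0.7724 in 60 min replicate 3 and 0.8563 in sensitized replicate 3, went with 3673 and 3094 CPM of Pigr. In TPM these libraries had 459.5 and 530.7, below the Pigr median of 559. The part of the scaling in the r of Pigr, that with Ighm included, was not tested.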

How the data were processed

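Bulk RNA of 15 libraries in 5 groups was analysed from the tables of transcripts that the authors deposited, each with 139058 transcripts. The submitters' processing notes name cutadapt 1.18, Salmon 1.2.1 and the build mm10. No annotation release is named in them. Per the file headers, the authors' tables hold an estimated count per transcript, its TPM, and its length and effective length in bases. Transcripts were summed to genes with GENCODE M21, ignoring versions (137943 matched, 137334 with versions; the 1115 unmatched held 0.374% to 0.602% of counts and were left out), and rounded.

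Of 28797 genes with any count, filterByExpr kept 14968, the 6 members among them. edgeR 4.0.16 in R 4.3.3 (TMM, robust quasi-likelihood fit, 1 mean per group, 10 residual degrees of freedom, biological coefficient of variation 0.26) tested 8 pairs of groups and any difference, with Benjamini-Hochberg adjustment over all genes at 0.05. The same code was tested on simulated data. CPM are TMM-scaled, with a prior count of 2 for log2 CPM. DESeq2 1.42.0, limma-voom (limma 3.58.1), other scalings and filters, and leaving out each library were tried as alternatives. For the lists and their called genes, leaving out libraries was chosen after seeing the data. Shares have 95% Wilson intervals, which cover counting error only, since reads are not independent molecules. Total counts of 15661513 to 22691349 bear on the counting error, and the SE of a fold change also reflects the spread between mice. Python 3.11.15, pandas 2.3.3, numpy 2.4.6, scipy 1.17.1 and matplotlib 3.10.9 joined tables and drew figures.

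Named genes are the 6 members, the genes of each list that passed or, where none did, up to 4 by p, and the 5 genes most like each member by Pearson's r of log2 CPM with a mean of at least 2 CPM, without numbered gene models and receptor segments, and the 3 variable segments of each chain with the highest summed counts. Other segments were named after their values were seen. Lists of brush border, crypt, stromal and red cell genes, the last 2 described only among the other observations, had no gene called at 120 min against the sensitized or PBS mice. The members and lists were chosen with earlier results of these data known. Replicate numbers only name libraries.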

Additional observations from a re-analysis of the deposited data

Results flagged for a closer look

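Among the genes of the lists read beside the antibody genes, 2 differed between 60 and 120 min after challenge by edgeR's quasi-likelihood test. Of all 14968 genes tested, 1.12% were called in the same comparison, so these 2 are not read as a result about the lists. Krt20, a keratin of mature enterocytes, was higher at 120 min by 0.68 ± 0.15 on the log2 scale (adjusted p = 0.0404), with 711 ± 101 CPM against 444 ± 48.6 CPM (SD, n = 3). Lgr5, a receptor of intestinal stem cells, had a log2 fold change of -1.09 ± 0.25 (adjusted p = 0.0476), with 16.7 ± 4.6 CPM at 120 min against 35.4 ± 1.86 CPM at 60 min. Krt20 kept its call without 60 min replicate 1 or 120 min replicate 2 (adjusted p 0.0384 and 0.0461) and lost it without any other library of either group (0.0814 to 0.231). Lgr5 kept it only without 60 min replicate 1 (0.0326; otherwise 0.0504 to 0.21). No member was called in this comparison by the same test.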

How the results depend on the processing

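Each of the 48 fold changes of the 6 genes was recomputed under alternatives, 768 values in all, of which 709 kept direction and side of the threshold, 9 lost and 19 gained a call and 31 changed sign. None of the 320 values of the 5 antibody genes at 120 min changed sign. With DESeq2 the members called were 3 at 120 min against the sensitized mice, 4 against the PBS mice, 4 against 30 min, 3 against 60 min and 3 in the joint test, and with limma-voom 3 against the PBS mice and 2 against 60 min. At 120 min against PBS the count was 0 without TMM, without a filter and with length offsets. Leaving out 1 library gave 0 to 1 members against PBS, where any 120 min library or PBS replicate 1 or 2 decided the call, and 0 to 1 against 60 min, where Jchain passed without 60 min replicate 1 (adjusted p = 0.049). The cause of these changes was not tested. The count of all genes called moved by more than 1.5 times: at 120 min against PBS it was 176 in edgeR, 966 in DESeq2, 11 without TMM and 5 to 116 without 1 library, and against the sensitized mice 188, 846, 22 and 7 to 240. Against 30 min it was 151, 838, 15 and 4 to 67, against 60 min 168, 951, 4 and 0 to 1151, and in the joint test 52, 1092, 6 and 0 to 180. With length offsets these counts were 44, 34, 32, 46 and 12 in the same order. The extremes came without 60 min replicate 1 (1151), PBS replicate 1 or 3 (5), sensitized replicate 3 (7) and 120 min replicate 1 (4 against 30 min). Without a filter the counts were 319 against PBS, 279 against 60 min and 380 in the joint test, with only the groups compared 4 against 30 min and 0 against 60 min, and with limma-voom 26 in the joint test. DESeq2 called 189 genes at 60 min against the sensitized mice, where edgeR called 1 (385 without 60 min replicate 1, 49 without a filter), and 5 or 6 in the comparisons where edgeR called 0.

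Changes of sign were found only where the fold change was at most 0.54 in size on the log2 scale. For Pigr at 30 min against the sensitized mice, the log2 value was 0.00 with DESeq2, RLE factors, mitochondrial genes left out or only the groups compared, 0.11 without TMM and 0.01 without a filter. With limma-voom, Ighm in sensitized against PBS mice had -0.55 and Igha at 60 against 30 min had 0.03. Leaving out 1 library, the values against the sensitized mice at 30 min were -0.14 to 0.63 for Igha, -0.37 to 1.55 for Ighm, -0.26 to 0.70 for Igkc and -0.15 to 0.16 for Pigr. At 60 min they were -0.04 to 0.32 for Igha, -1.25 to 0.95 for Ighm, -0.31 to 0.86 for Mzb1 and -0.08 to 0.34 for Pigr, and Pigr had -0.26 to 0.02 at 120 min. For 60 against 30 min they were -0.50 to 0.26 for Igha, -0.11 to 0.83 for Igkc, -0.14 to 0.51 for Jchain and -0.09 to 0.34 for Pigr. Ighm in sensitized against PBS mice had -1.32 to 0.60, and Pigr at 120 against 30 min had -0.26 to 0.01. No paired analysis was possible because every library carries its own number. Depth limits Mzb1, Ighm and the variable segments at 120 min, where counts are smallest.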

Other observations

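In 30 min replicate 1 the 13 stromal and endothelial genes summed to 270.7 CPM, against 6.438 to 22.25 CPM in the other 14 libraries. Its Igha and Igkc levels, 976.7 and 430.8 CPM, lay inside the range of the other 11 libraries outside the 120 min group. Globin and other red cell genes (5 genes) summed to 18.93, 29.1 and 54.32 CPM at 30 min and 125.2, 152.1 and 179.4 CPM in the sensitized mice, with 0 of 5 called by edgeR's quasi-likelihood test. At 60 min replicate 3, which had fewest Igha counts per Igkc count, the red cell genes summed to 139 CPM against 14.24 and 39.8 CPM in the other 2 libraries of its group.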
